A study of Mus musculus with 24 samples.

Results

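The genes described here are 33 genes of cholesterol and fatty acid synthesis, chosen by gene name from the 51697 genes of a read count table. They comprise 18 enzymes of the sterol pathway, 4 regulators of the sterol response, 2 sterol transport genes and 9 lipogenic enzymes, the enzymes that make, lengthen and desaturate fatty acids. All 33 passed the filter on low counts in every fit, so none was tested only because 1 group was high.

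Cholesterol is made from acetyl-CoA through the mevalonate pathway, which leads by way of isoprenoids and squalene to lanosterol and then, by a chain of demethylations, reductions and isomerisations, to cholesterol. Transcription of these enzymes is driven by the sterol regulatory element binding proteins (SREBPs), which are held in the endoplasmic reticulum by SCAP and INSIG while sterols are plentiful and are cut free to enter the nucleus when sterols run low. The SREBP2 form acts mainly on sterol genes and the SREBP1 form mainly on lipogenic genes, and dividing cells depend on both branches to build membrane.

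The cells were F123 mouse embryonic stem (ES) cells, an established line, in which the genome-folding factor CTCF carried an auxin-inducible degron (AID), a tag through which added auxin leads to the destruction of the protein. Every group carried the degron, and cells without it that received auxin were not analysed here. ES cells were collected without auxin (0 h) and after 24, 48 and 96 h of auxin, and cells under neural progenitor differentiation were collected on days 2, 4 and 6 without auxin (control) or with it. In 2 further groups auxin was removed by washing, either on day 4 or on day 6, and RNA was taken 2 days afterwards. The 12 groups had 2 libraries each, made from total RNA. Medium with auxin was renewed every 24 h and, in the protocol given for all samples, contained a serum replacement and LIF, a factor that holds ES cells undifferentiated; what medium the differentiating cells were in is not given in the sources used here. Whether the line is 1 clone, and when during differentiation auxin was first added, are also not given.

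Depth was a total count of 24696374 to 29909368 in the ES libraries of replicate 1, 51686150 to 61681404 in those of replicate 2 and 51053184 to 72048935 during differentiation. Same-numbered ES libraries deviated together from their group means, so ES comparisons were made within replicate number; log2 ratios of replicate 1 to replicate 2 had an SD over genes of 0.607 to 0.754 in ES groups, 0.332 in day 2 auxin and 0.124 to 0.168 in the other differentiation groups. Whether a count is a read or a read end is not given in the sources used here. Even values made up 59.6 to 60.5% of the counts from 1 to 20 in the 4 washout libraries and 65.9 to 78% in the other 20. Halving all counts before the fit left each of 191 calls on these 33 genes in place. That treats every library alike, so it cannot show what the difference between the washout libraries and the others does to their comparison. Ctcf RNA ran from 172.4 to 287.2 CPM (the usual depth-scaled unit of count tables, library sizes adjusted by TMM) over the 24 libraries, and since auxin acts on the protein this RNA checks no label. Whether the replicates are separate cultures is not stated in the labels, and p-values therefore measure the spread between these libraries, which may be technical. The RNA was from bulk cells, in which fewer cells of a type and less RNA per cell cannot be told apart.

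The stretches just upstream of 5 of the genes are shown because SREBPs act at such promoters with NF-Y, the factor that binds CCAAT boxes: Hmgcs1, Mvd, Nsdhl and Fasn were lower in auxin in 1 or more comparisons below, and Sc5d, which passed in no auxin comparison, is set beside them. Each is the 250 bases before the RefSeq start site (build GRCm38.p6), read 5′ to 3′ on the strand of the gene. Capitals mark matches to CCAAT or to the sterol regulatory element letters TCACNCCAC on either strand (a CCAAT on the other strand reads ATTGG).
Hmgcs1 (chr13:119690101-119690350, plus strand): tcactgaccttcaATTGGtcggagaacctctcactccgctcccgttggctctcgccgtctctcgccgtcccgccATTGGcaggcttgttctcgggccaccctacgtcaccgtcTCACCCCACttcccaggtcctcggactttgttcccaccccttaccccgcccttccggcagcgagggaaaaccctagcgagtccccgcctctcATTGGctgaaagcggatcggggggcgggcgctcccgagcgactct
Mvd (chr8:122443423-122443672, minus strand): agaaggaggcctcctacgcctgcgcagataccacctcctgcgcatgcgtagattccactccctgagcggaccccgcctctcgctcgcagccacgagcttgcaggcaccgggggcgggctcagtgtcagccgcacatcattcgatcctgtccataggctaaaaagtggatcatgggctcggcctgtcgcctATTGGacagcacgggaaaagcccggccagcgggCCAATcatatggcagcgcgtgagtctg
Nsdhl (chrX:72918271-72918520, plus strand): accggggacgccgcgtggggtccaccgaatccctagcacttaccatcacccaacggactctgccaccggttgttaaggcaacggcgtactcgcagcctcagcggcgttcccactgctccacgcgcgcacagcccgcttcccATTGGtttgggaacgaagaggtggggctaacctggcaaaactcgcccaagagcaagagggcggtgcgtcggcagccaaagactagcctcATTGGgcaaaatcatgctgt
Fasn (chr11:120824548-120824797, minus strand): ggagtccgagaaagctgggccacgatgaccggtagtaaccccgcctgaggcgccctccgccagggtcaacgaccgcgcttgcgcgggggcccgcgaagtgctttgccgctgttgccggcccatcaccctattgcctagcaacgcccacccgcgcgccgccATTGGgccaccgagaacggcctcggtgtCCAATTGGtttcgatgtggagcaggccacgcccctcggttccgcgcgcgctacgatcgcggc
Sc5d (chr9:42264301-42264550, minus strand): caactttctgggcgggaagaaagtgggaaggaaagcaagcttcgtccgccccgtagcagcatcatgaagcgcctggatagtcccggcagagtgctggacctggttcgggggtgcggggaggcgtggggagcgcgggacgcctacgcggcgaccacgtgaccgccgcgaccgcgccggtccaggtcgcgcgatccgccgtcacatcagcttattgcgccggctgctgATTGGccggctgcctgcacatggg

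All 5 stretches held a CCAAT match, and in Fasn a pair of them overlap on opposite strands. The TCACNCCAC match of Hmgcs1 begins 137 bases before its start site. RefSeq windows of 250 bases before and 50 after the start were at hand for 26 of the 33 genes. CCAAT matched in 20 of these 26 genes (76.9%) against 41.1% of all 27025 genes with a window, and TCACNCCAC in 1 of 26, Hmgcs1, against 1.44%. The E-box CACGTG matched in 6 of 26 genes (23.1%) against 8.09%, and AGGNGGC, letters from the CTCF core motif, in 13 of 26 (50%) against 31.8%. Genes without a CCAAT match were Acat2, Scap, Abca1, Acaca, Elovl6 and Fads2. The only Acaca window (chr11:84195188-84195487) lies inside the gene, which is annotated from 84129672 on the plus strand. The stretch before that first start was not searched. The CCAAT matches of Dhcr7 (chr7:143829964-143830263) and Me1 (chr9:86687228-86687527) also lie in windows inside their annotated genes. Their windows at the first annotated start held no CCAAT match. These are matches of letters in a window and not measured binding.

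Levels differed widely among the genes. Per kilobase of annotated exon (GENCODE vM21), the highest mean level in ES cells at 0 h was that of Scd2, a stearoyl-CoA desaturase that makes monounsaturated fatty acids, at 186 CPM per kb. Acly, which makes cytosolic acetyl-CoA from citrate, was at 133 CPM per kb, Hmgcs1 (HMG-CoA synthase, at the entry to the mevalonate pathway) at 73.4 and Fasn (fatty acid synthase) at 69.5. These are means of 2 libraries that differed, Hmgcs1 being at 221 and 453.5 CPM, and no order is read from those below Acly. At the low end stood Abca1, the pump that hands cholesterol to lipoproteins, at 2.95 CPM per kb, Fdps (farnesyl diphosphate synthase) at 3.9 and Acaca (acetyl-CoA carboxylase, which makes malonyl-CoA) at 6.89. In the day 6 controls Scd2 was again highest at 218.5 CPM per kb, and Abca1 had reached 18. Exons of 12 of the 33 genes overlap an exon of another gene, on the same strand for 4 and on the opposite strand for 9. These genes are Hmgcs1, Idi1, Fdps, Fdft1, Lss, Cyp51, Tm7sf2, Srebf1, Scap, Scd2, Elovl6 and Me1. The strand setting of the counting is not given in the sources used here. How reads from the shared stretches were assigned cannot be read from the counts, so levels of these genes may be too low or too high.

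**Figure D1:**
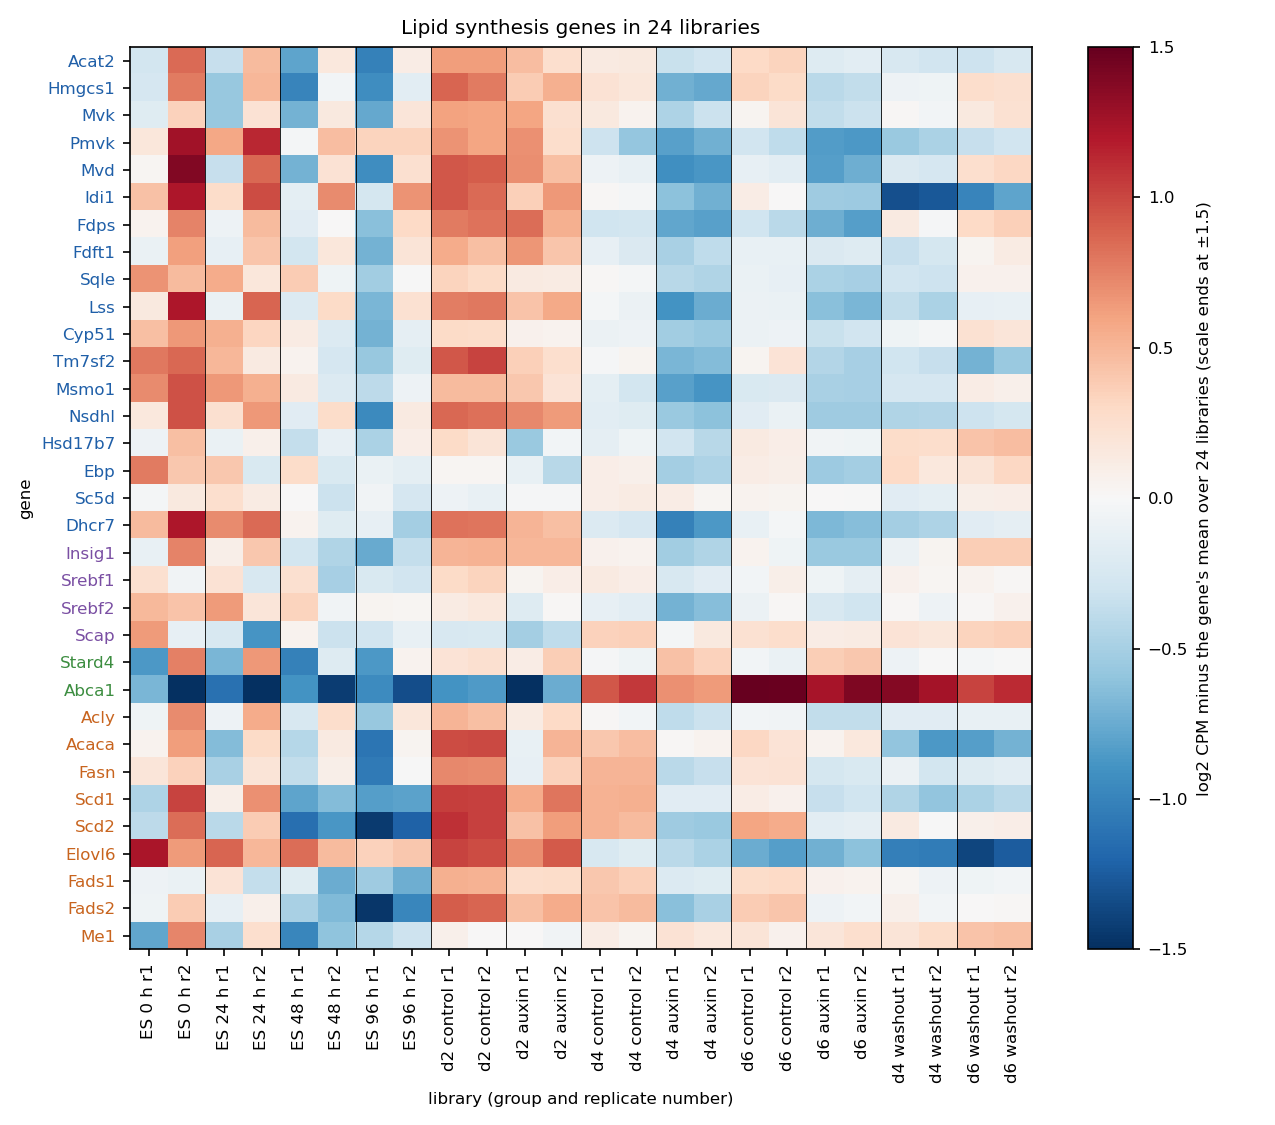
Level of each of the 33 genes (rows, named in colour by class) in each of the 24 libraries (columns), as log2 CPM minus the mean of that gene over all libraries; the colour scale ends at ±1.5. Day 2 controls and replicate 2 of ES cells at 0 h are red over most sterol and lipogenic genes, day 4 and day 6 auxin libraries are blue over most of them, and Abca1 runs opposite, with its highest levels after day 2.

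In untreated cells the sterol and lipogenic genes stood high on day 2 and were lower on day 4. Between day 2 and day 4, 26 genes fell, 3 rose and 4 did not pass in edgeR's quasi-likelihood test with Benjamini-Hochberg adjustment at 0.05, against 24.8% of all genes lower and 27.2% higher. The median log2 fold change was -0.48, against 0.01 over all genes. The fall took in 16 of 18 sterol enzymes, 3 of 4 regulators and 6 of 9 lipogenic enzymes.

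Among the sterol enzymes, Nsdhl, a dehydrogenase of the demethylation steps, went from 124 and 121 CPM on day 2 to 61.3 and 60.5 on day 4 (log2 fold change -0.99, SE 0.06, adjusted p 3.74e-10). Dhcr7, which carries out the last reduction to cholesterol, went from 135 and 133.5 CPM to 66.7 and 64.3 (-1.02, SE 0.06, adjusted p 6.78e-10). In both genes the 2 libraries of a day lay close together and the days did not overlap. Mvd, the decarboxylase that ends the mevalonate steps, fell by 1.00 and Fdps by 1.07 on the log2 scale. Elovl6, the elongase that lengthens palmitate, changed most among the lipogenic genes, from 461 and 451 CPM to 194 and 201 (-1.19, SE 0.07, adjusted p 5.37e-10). Fasn did not pass (1044 and 1035 CPM, then 901.5 and 902.2, adjusted p 0.13). The 3 genes that rose were Abca1, Scap and Sc5d, a desaturase late in the sterol pathway. Abca1 went from 34.3 and 35.5 CPM to 122 and 133 (1.89, SE 0.15, adjusted p 1.93e-08), Scap rose by 0.60 and Sc5d by 0.22 on the log2 scale. Marker lists moved over the same days: all 9 ES cell markers fell, and all 9 neural progenitor markers and all 10 endoderm markers rose; their part in the result was not tested.

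From day 4 to day 6 most of the genes did not pass: 2 rose, 3 fell and 28 did not, with a median of 0.00, against 13.6% of all genes higher and 13.1% lower. Elovl6 fell further, to 136 and 129 CPM (-0.57, SE 0.07, adjusted p 1.75e-05). Scd1, the paralogue of Scd2, fell by 0.43 and Fasn by 0.29 on the log2 scale, while Abca1 rose by 0.55 to 194 and 178 CPM and Acat2, an acetyl-CoA acetyltransferase, rose by 0.19. Neuron markers rose over this interval in 8 of 8 genes, whose part was not tested. Without any 1 of the 4 libraries compared, 2 or 3 genes passed. In the comparison of day 2 controls with ES cells at 0 h, which also differ in culture and in replicate spread, only Fads2 (0.71, SE 0.16, adjusted p 0.00402) and Fads1 (0.62, SE 0.17, adjusted p 0.0147), both desaturases of polyunsaturated fatty acids, passed and both were higher. The median was 0.11, against 10.3% of all genes higher and 7.91% lower. With a replicate block within each set of libraries, 20 genes passed in that comparison, without replicate 2 of ES cells at 0 h 9, and without replicate 1 of those or either day 2 control 1.

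Auxin during differentiation lowered most of the 33 genes on each day. On day 2, 20 were lower, 0 higher and 13 did not pass, against 8.43% of all genes lower and 9.84% higher. On day 4, 28 were lower and 1 higher, against 11.8% lower and 11.8% higher, and on day 6, 23 were lower and 1 higher, against 15.2% lower and 14% higher. The single gene that was higher, on both day 4 and day 6, was Stard4. The medians were -0.22, -0.50 and -0.41, and those of all genes lay between -0.02 and 0.02 in every comparison. In 26, 30 and 30 of the 33 genes on the 3 days both auxin libraries lay below both controls, as in 24.2, 31.1 and 32.8% of all genes. On day 2, 24 were lower and 0 higher at an unadjusted p below 0.05, against 13.8% of all genes lower and 16.1% higher.

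Of the mevalonate steps, Acat2, Hmgcs1, Mvd and Idi1 were lower with auxin on all 3 days. Hmgcs1 was at 308 and 297 CPM in the day 4 controls and at 160 and 154.5 with auxin. On day 6 it was at 334 and 322 CPM against 200.2 and 204, and on day 2 at 482 and 452 against 343 and 381. Auxin libraries were lower on all 3 days without overlap, and the day 4 difference was 1.93-fold (log2 -0.95, SE 0.06, adjusted p 5.67e-09), with -0.71 on day 6 and -0.35 on day 2. Mvd was at 51.3 and 50.2 CPM in day 4 controls and at 28.6 and 29.6 with auxin (-0.81, adjusted p 5.53e-07). Idi1, the isomerase that makes the reactive isoprene unit, was at 21 and 20.3 against 13.6 and 12.6 CPM on day 4 (-0.67, adjusted p 8.39e-05). Of the 2 mevalonate kinases, Mvk was lower by 0.50 and Pmvk by 0.34 on the log2 scale on day 4, and neither passed on day 2. Fdps, next along the route, was likewise lower on day 4 (-0.52) and day 6 (-0.43) but had values of 20.9 and 21.4 against 21.7 and 17.6 CPM on day 2, which overlap.

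The squalene and sterol steps were likewise lower. Lss, which closes squalene epoxide into lanosterol, was at 104 and 99.1 CPM in day 4 controls and at 56.6 and 62.8 with auxin (-0.77, SE 0.07, adjusted p 3.4e-07). Sqle, which makes that epoxide, was lower by 0.17, 0.44 and 0.39 on the log2 scale on days 2, 4 and 6. Dhcr7 was lower by 0.31, 0.72 and 0.60 and Cyp51, the lanosterol demethylase, by 0.21, 0.47 and 0.25. Tm7sf2, a sterol reductase, differed from these in that its day 2 difference (60.8 and 64.2 CPM against 40.9 and 38.1, log2 -0.65, adjusted p 1.58e-05) was close to those on day 4 (-0.69) and day 6 (-0.61). Msmo1 and Nsdhl, which act in the demethylation steps, passed on days 4 and 6, at -0.64 and -0.29 and at -0.43 and -0.41. Ebp, a sterol isomerase, passed on all 3 days with -0.27, -0.58 and -0.64. Fdft1 (squalene synthase) passed on day 4 alone, at -0.28, and its exons overlap those of Ctsb on the opposite strand.

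Of the sterol enzymes, Sc5d passed on none of the 3 days. It was at 75.2 and 76.3 CPM in day 4 controls and at 75.9 and 71.9 with auxin, and over all 24 libraries it ranged from 56.2 to 84 CPM. Hsd17b7, which takes part in the demethylation steps, passed on day 2 alone (42.2 and 39.4 CPM against 23.4 and 33.5, log2 -0.50, adjusted p 0.00431). In the day 2 auxin group the 2 libraries stood further apart than in other differentiation groups, and Acaca shows it: the controls were at 180 and 181 CPM and the auxin libraries at 84.7 and 130 (-0.74, SE 0.13, adjusted p 0.000902). The fit shares the dispersion of a gene over all differentiation groups. The SEs and adjusted p of day 2 may therefore overstate the precision of the day 2 auxin group.

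Of the regulators, all 4 were lower with auxin on day 4 and 2 of 4 on each of days 2 and 6. Insig1, itself a known SREBP target whose product retains SCAP, had 210.2 and 212 CPM in day 2 controls and 207 and 208 with auxin (-0.01, adjusted p 0.949). On day 4 it was at 154 and 153 CPM against 103 and 108 (-0.55, SE 0.06, adjusted p 2.47e-06), and on day 6 at 153 and 140.5 against 100.1 and 100.3 (-0.56, adjusted p 1.43e-06). Auxin libraries were below controls on each day, narrowly on day 2 and widely on days 4 and 6. Srebf2, which encodes SREBP2, was at 329 and 319 CPM in day 4 controls and at 218 and 230.2 with auxin (-0.54, SE 0.07, adjusted p 1.74e-05), with -0.21 on day 2 and -0.25 on day 6. Srebf1 passed on day 2 (-0.22) and day 4 (-0.33), and Scap on day 4 alone (-0.30).

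Of the sterol transport genes, Stard4 was higher with auxin on days 4 and 6 and Abca1 did not pass. Stard4, a carrier that moves cholesterol between membranes, was at 120 and 116.5 CPM in day 4 controls and at 165 and 155 with auxin (0.43, SE 0.07, adjusted p 0.000276). On day 6 it was at 118 and 114 against 158 and 161 (0.45, adjusted p 0.000124), again without overlap, and on day 2 at 140 and 143.5 against 131.5 and 158, which do overlap. Abca1 passed on none of the days, with 122 and 133 against 102 and 98.9 CPM on day 4 (-0.35, adjusted p 0.0984) and 194 and 178 against 149.8 and 167 on day 6, where both auxin libraries lay below both controls.

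Among the lipogenic genes, 7, 8 and 6 of 9 were lower on days 2, 4 and 6, and the largest differences on day 4 were those of 2 desaturases. Scd2 was at 1145 and 1113 CPM in day 4 controls and at 554 and 543 with auxin, a 2.07-fold difference (log2 -1.05, SE 0.06, adjusted p 4.95e-09). On day 6 it was at 1210 and 1177 against 719 and 729.5 (-0.73), and on day 2 at 1715 and 1633 against 1084 and 1235 (-0.52). Auxin libraries were below controls on every day. Fads2 was at 105 and 108 CPM against 50.6 and 55.6 on day 4 (-1.01, SE 0.07, adjusted p 9.22e-09), and Fasn at 901.5 and 902.2 against 477 and 497 (-0.90, SE 0.10, adjusted p 4.54e-06). Fasn was lower on day 2 as well (-0.58) and on day 6 (-0.47). Scd1, Fads1 and Acly passed on each day, with -0.70, -0.59 and -0.35 on day 4. Acaca was lower on days 2 and 4 but had 113 and 105 against 94.8 and 102 CPM on day 6 (adjusted p 0.419), and Elovl6 passed on day 4 alone (-0.24). Me1 (malic enzyme, a source of NADPH) passed on no day, with 114 and 108 against 122 and 118 CPM on day 4.

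**Figure D2:**
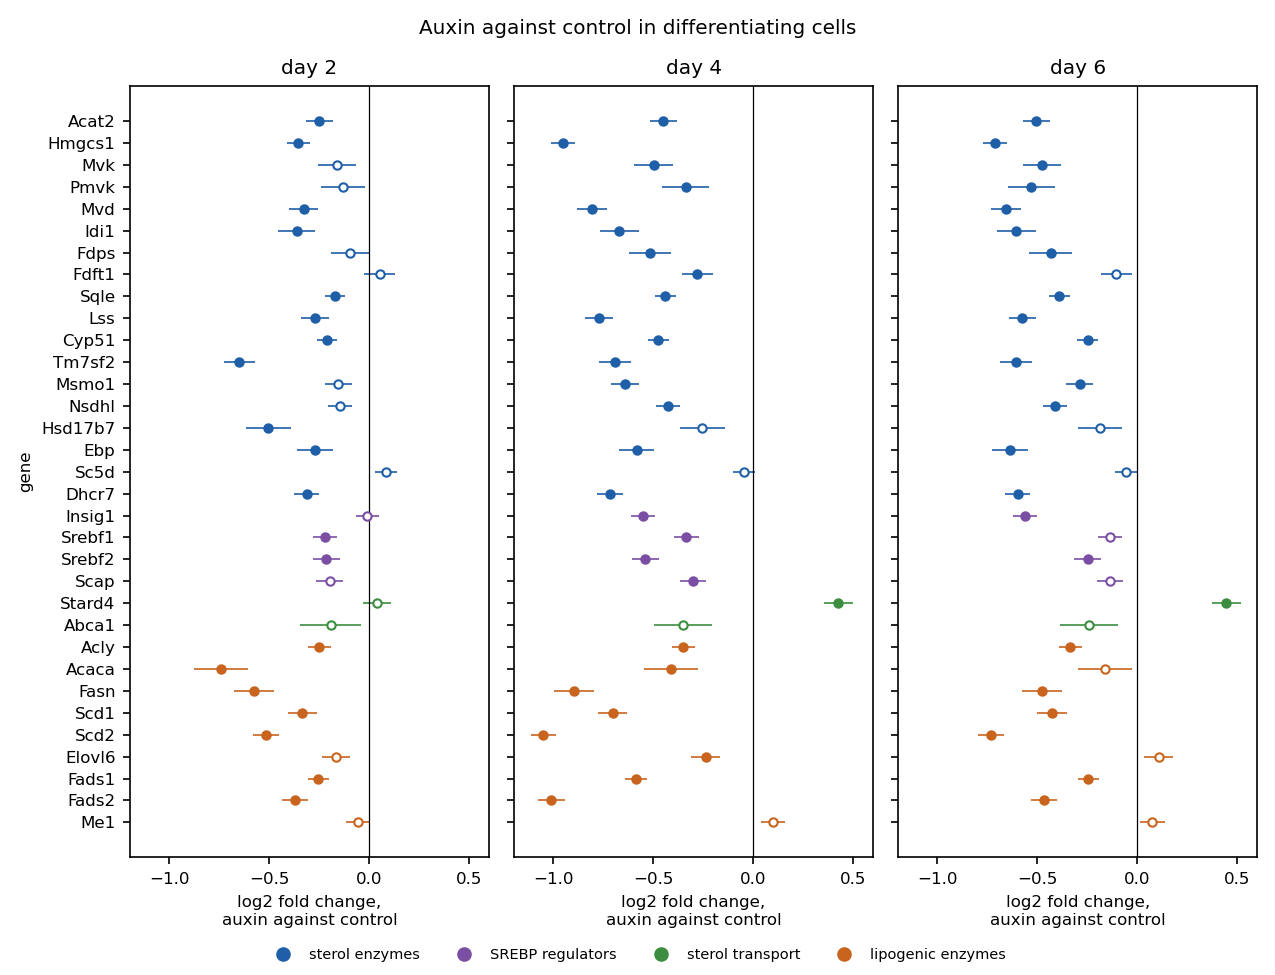
Log2 fold change of auxin against control (horizontal axis, with SE bars) for each of the 33 genes on days 2, 4 and 6 of differentiation, coloured by class; filled points passed at an adjusted p of 0.05. Most points lie left of 0, the furthest on day 4 being Scd2 at -1.05 and Fads2 at -1.01, and Stard4 lies to the right on days 4 and 6.

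Cell identity markers moved with auxin on the same days. Summed CPM of the 9 neural progenitor markers was 234 and 245 in day 4 controls against 127 and 134 with auxin, and 229.5 and 232 against 150.3 and 158 on day 6. The 9 ES cell markers summed to 738 and 726 against 1093 and 1089 on day 4, and to 472 and 452 against 893 and 886 on day 6. Neuron markers on day 6 summed to 262 and 276 against 24.7 and 24.8, and adipocyte-like markers on day 4 to 55.2 and 51.4 against 36.5 and 35.7. Most of the adipocyte-like sum was Lpl alone, at 48.6 and 44.7 CPM in day 4 controls against 32.8 and 31.8 with auxin. Fabp4 was at most 0.676 CPM and Adipoq at most 0.144 in any library. On day 2 the neural progenitor sums were 61.4 and 67.8 against 60.7 and 61.7. Genes within that sum moved in opposite directions. Pax6 was at 20 and 22 CPM in day 2 controls against 12.8 and 11.7 with auxin, and Sox1 at 18.1 and 19.3 against 9.16 and 9.49. Nes was at 16.9 and 18.5 against 28.8 and 32.2, and it was also higher with auxin on day 4 (57.6 and 60.5 against 68.9 and 77.1). The part of these markers in the result was not tested. With all 24 libraries in 1 fit, whose common dispersion was 0.0439 against 0.0051 in the fit of the 16 differentiation libraries, 1, 6 and 1 of the 33 genes passed on days 2, 4 and 6. Without replicate 1 of the day 2 controls, 12 passed on day 2.

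The size of the auxin difference was compared between day 6 and day 2 in the same fit, whose shared dispersion may understate the spread of day 2 auxin. It was further below 0 on day 6 for 6 genes (Hmgcs1, Mvd, Lss, Nsdhl, Dhcr7 and Insig1) and higher for 2 (Stard4 and Acaca), and 25 genes did not pass, against 8.13% of all genes lower and 7.09% higher. The median was -0.13. Insig1 had the smallest adjusted p, with a difference of -0.55 (SE 0.08, adjusted p 0.000189), and Acaca differed by 0.58 (SE 0.19, adjusted p 0.0487). Counts here moved with single libraries, from 2 without replicate 2 of the day 2 controls or replicate 2 of the day 6 controls to 20 without replicate 2 of day 2 auxin; they were 3 without replicate 1 of the day 2 controls, replicate 1 of day 6 auxin or replicate 2 of day 6 auxin, and 4 without replicate 1 of the day 6 controls. With a replicate block 5 passed, and with all 24 libraries in 1 fit, 0.

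**Figure D3:**
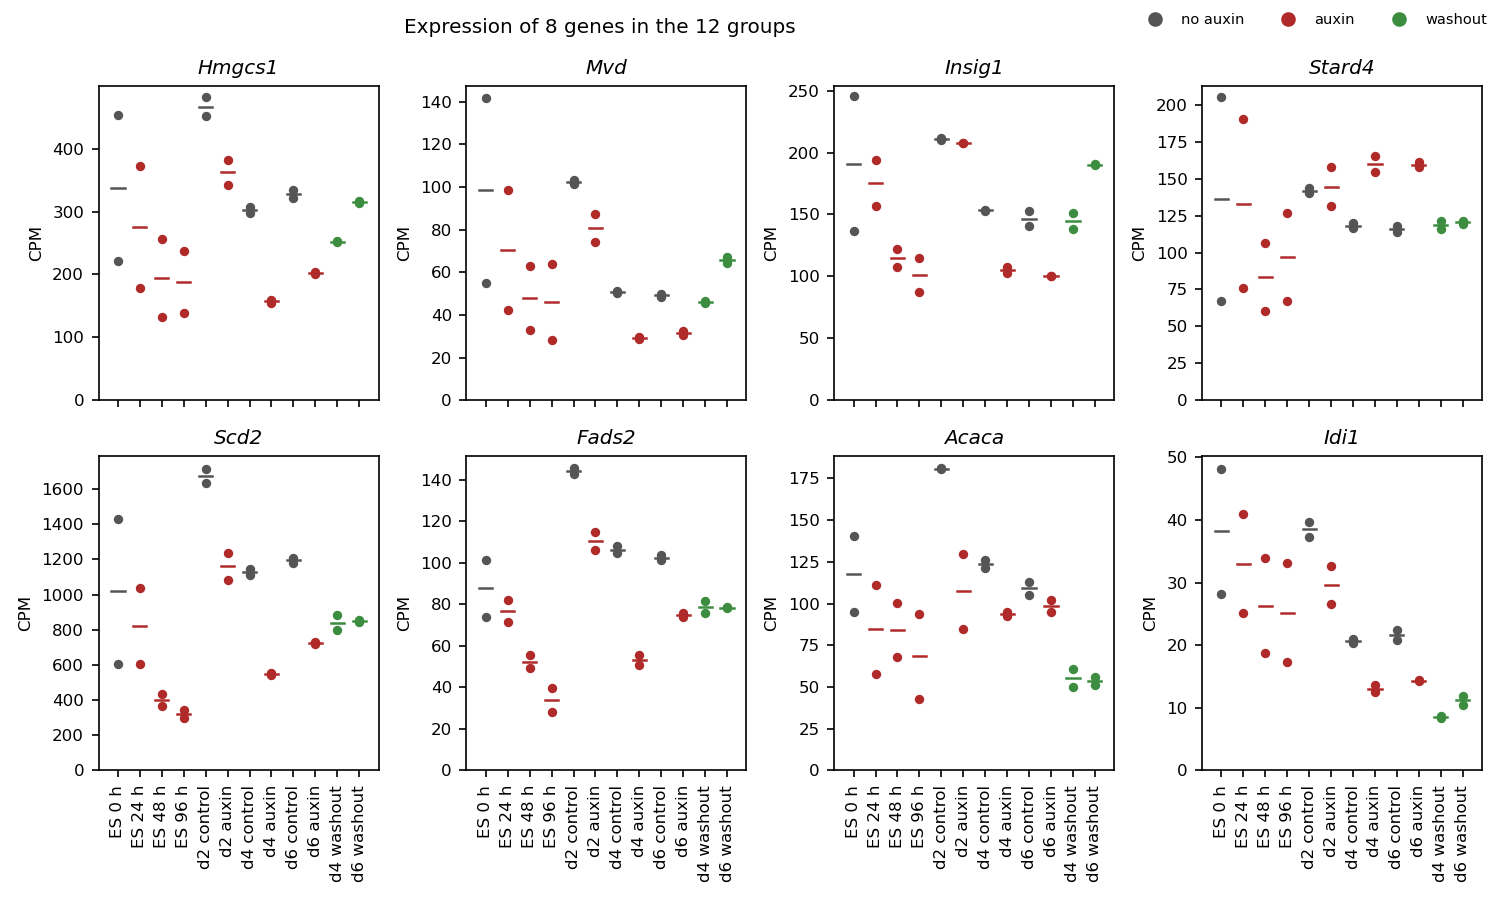
CPM of 8 genes (vertical axes start at 0) in the 12 groups; points are the 2 libraries of a group and bars their mean, in grey without auxin, red with auxin and green after washout. ES pairs lie far apart, with Scd2 at 608 and 1428 CPM at 0 h. Differentiation pairs mostly lie close, less so in day 2 auxin, where the Acaca pair is wide. Stard4 is above its controls in day 4 and day 6 auxin, and Acaca and Idi1 are lower after washout than in day 6 auxin.

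In ES cells, 12 of the genes fell by 96 h of auxin, led by Scd2 and Fads2. At that time 12 were lower and 0 higher in the test with replicate number as a block, against 1.6% of all genes lower and 1.45% higher, and the fitted fold of all 33 was below 0, as for 50.4% of all genes. At an unadjusted p below 0.05, 23 were lower and 0 higher, against 9.55% of all genes lower and 9.75% higher. The median log2 fold change was -0.20 at 24 h, -0.54 at 48 h and -0.71 at 96 h. The 12 comprised 9 of 18 sterol enzymes and 3 of 9 lipogenic enzymes, and no regulator.

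Scd2 was at 608 and 1428 CPM at 0 h and at 296 and 346 at 96 h, so each replicate fell although the levels of replicates 1 and 2 differed at the start (-1.57, SE 0.24, adjusted p 0.0215, a 2.97-fold difference). Fads2 was at 74.2 and 101 against 28.4 and 39.5 CPM (-1.38, SE 0.19, adjusted p 0.0178). Its log2 ratios within replicates 1 and 2 were -1.39 and -1.36, close to each other, while those of Scd2 were -1.04 and -2.05. Mvd was at 55.1 and 142 against 28.3 and 64 CPM (-1.07, SE 0.16, adjusted p 0.0204), with groups that overlap unless libraries are compared within a replicate number. Tm7sf2 was at 55.3 and 58.2 CPM at 0 h and at 21.5 and 28.2 at 96 h (-1.20, adjusted p 0.0288), and here the groups do not overlap. The others that passed were Dhcr7 (-1.18), Msmo1 (-1.08), Cyp51 (-0.97), Nsdhl (-0.97), Lss (-0.93), Acaca (-0.87), Hmgcs1 (-0.81) and Acat2 (-0.75).

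Some genes with large fitted folds did not pass. Scd1 had within-replicate log2 ratios of -0.35 and -1.81 at 96 h (fitted -1.14, adjusted p 0.091), and Insig1 went from 136 and 245.8 CPM to 87.2 and 115 (-0.91, adjusted p 0.061). Me1 and Pmvk went in opposite directions in the 2 replicates, at 0.35 and -1.03 and at 0.16 and -0.92. Stard4, higher with auxin in differentiating cells on days 4 and 6, was at 67.3 and 205.5 CPM at 0 h and at 66.9 and 127 at 96 h (-0.38, adjusted p 0.35). Sc5d was at 68.5 and 78 against 67.7 and 59.1 CPM.

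At 24 h, 0 of 33 passed in edgeR's quasi-likelihood test with the filter on low counts, where 0.0933% of all genes were lower and 0.0196% higher. At an unadjusted p below 0.05, 5 were lower and 0 higher, against 2.52% of all genes lower and 3.65% higher. DESeq2 also gave 0 at 24 h, and edgeR without the filter gave 1. At 48 h, 0 passed, where 0.0982% of all genes were lower and 0.0982% higher. At an unadjusted p below 0.05, 21 were lower and 0 higher, against 5.32% of all genes lower and 6.73% higher. Without the filter 13 passed at 48 h, DESeq2 gave 9, the fit of all 24 libraries 8 and the test without replicate 1 of ES cells at 0 h 4. The smallest adjusted p at 48 h was 0.061, for Mvd (-0.96, SE 0.16). Between 48 and 96 h, 0 passed, as did 0% of all genes in either direction, the median was -0.14 and DESeq2 gave 0. At an unadjusted p below 0.05, 2 were lower and 0 higher, against 2.91% of all genes lower and 2.31% higher, which is near the background. Counted within replicates, 22, 30 and 29 of the 33 genes were lower than at 0 h in both at 24, 48 and 96 h, as were 30.2, 29.3 and 26.3% of all genes tested. None of the 33 was higher in both, as 29.4, 28.7 and 27.2% of all genes were. At 24 h the median ratio was -0.05 in replicate 1 and -0.31 in replicate 2, and at 96 h it was -0.68 and -0.63.

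**Figure D4:**
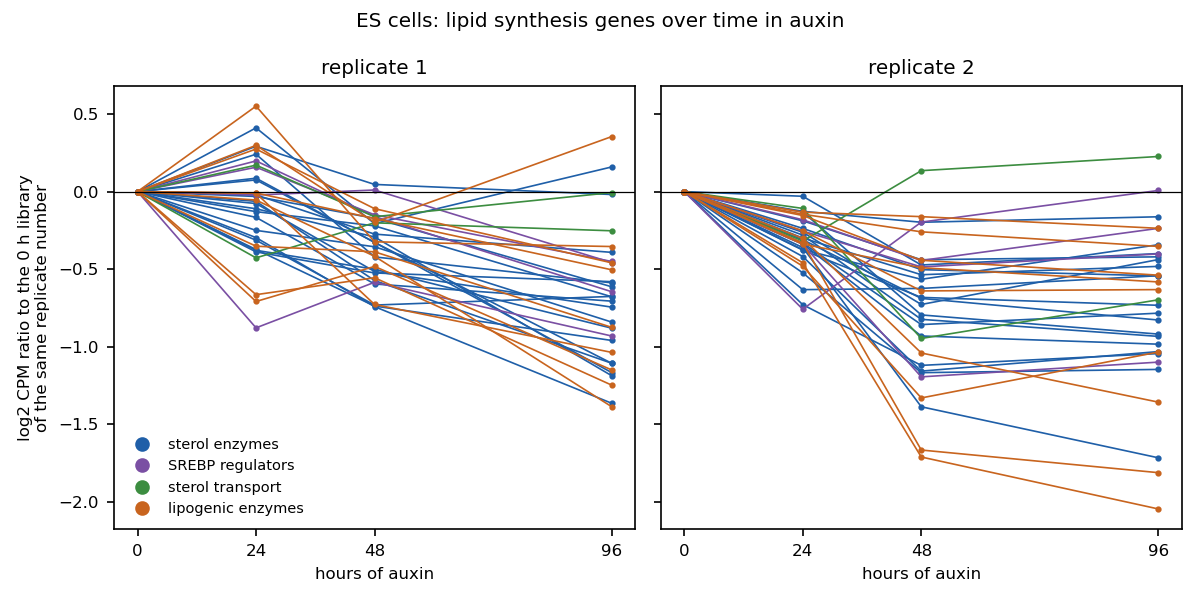
Log2 CPM ratio to the 0 h library of the same replicate number (vertical axis) against hours of auxin (horizontal axis) in ES cells, 1 line for each of the 33 genes, coloured by class, with replicate 1 on the left and replicate 2 on the right. Most lines are below 0 at 96 h in both replicates, with Scd2 at -2.05 and Scd1 at -1.81 lowest in replicate 2.

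The 96 h calls rest on the pairing: without the replicate block 0 of 33 passed, without replicate 2 of ES cells at 0 h 5 did, and DESeq2 gave 19. Replicate deviations of the 0 h and 96 h groups correlated at 0.157, the lowest of the 6 ES pairs of groups. Among markers at 96 h, 2 of 9 ES cell markers and 2 of 6 tested neuron markers were lower and 1 each of 7 fibroblast, 5 neural progenitor and 9 endoderm markers was higher. Summed fibroblast markers were 180 and 286 CPM at 0 h against 436 and 655. Most of these sums came from Pdgfra alone, at 169 and 247 CPM at 0 h against 415 and 557. The part of these markers in the result was not tested. The day 4 auxin difference of differentiating cells was also compared with the 96 h difference of ES cells in 1 fit of all 24 libraries. That fit does not hold the pairing of the ES replicates. None of the 33 genes passed in edgeR's test, where 0.462% of all genes were higher and 0.772% lower, and the median difference was 0.22. At an unadjusted p below 0.05, 3 were higher (Cyp51, Tm7sf2 and Msmo1, by 0.48, 0.51 and 0.43) and 0 lower, against 5.3% of all genes higher and 6.47% lower. DESeq2 gave 0, a replicate block within each set 1 and no filter on low counts 1. Without replicate 1 of ES cells at 0 h 4 passed and without replicate 2 at 96 h 1. The SEs of the 33 differences ran from 0.18 to 0.59, so a miss does not show that the responses were alike.

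After washout most sterol genes stood above the day 6 auxin level, and the lipogenic genes were divided. These comparisons share the day 6 auxin libraries with each other and with the auxin comparison on day 6. Their signs are therefore not independent of it or of each other. Cells washed on day 4 were collected after as many days as day 6 auxin cells, whereas cells washed on day 6 were collected 2 days later, so time also differs there. The washout libraries also had a smaller share of even counts than all others, and its part in these comparisons was not tested. After day 4 washout, 17 genes were higher than in day 6 auxin, 4 lower and 12 did not pass, against 17.3% of all genes higher and 17.3% lower, with a median of 0.17. After day 6 washout, 20 were higher and 4 lower, against 20.4% higher and 19.9% lower, with a median of 0.26. Sterol enzymes made up 12 and 14 of those that were higher, and lipogenic enzymes 2 and 3.

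Insig1 was at 100.1 and 100.3 CPM in day 6 auxin, at 138.5 and 151 after day 4 washout and at 191 and 190 after day 6 washout, with day 6 controls at 153 and 140.5. The differences from day 6 auxin were 0.55 (SE 0.06, adjusted p 2.31e-06) and 0.94 (SE 0.06, adjusted p 3.94e-09). Mvd was at 30.5 and 32.5 CPM in day 6 auxin, at 46.5 and 45.6 after day 4 washout and at 64.2 and 67.2 after day 6 washout (0.57 and 1.08). Both thus lay near the day 6 controls after day 4 washout and above them after day 6 washout. Fdps was at 7.34 and 6.83 CPM in day 6 auxin, at 13.4 and 12 after day 4 washout and at 15 and 15.6 after day 6 washout (0.86 and 1.13), above the day 6 controls of 9.84 and 9.15 in each washed library. Hmgcs1 was at 251 and 252.5 CPM after day 4 washout and 317 and 313 after day 6 washout. The 2 Hmgcs1 pairs lie above day 6 auxin, at 200.2 and 204, and below the day 6 controls, at 334 and 322.

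The 4 genes that were lower than in day 6 auxin were the same in both washout groups: Idi1, Stard4, Acaca and Elovl6. Both comparisons use the same day 6 auxin libraries, so this agreement is partly built in. As a share of the genes described here, 4 is below the 17.3% (day 4 washout) and 19.9% (day 6 washout) of all genes that were lower. Idi1 was at 14.4 and 14.3 CPM in day 6 auxin, at 8.31 and 8.62 after day 4 washout (-0.74, SE 0.10, adjusted p 4.31e-05) and at 10.4 and 12 after day 6 washout (-0.34, adjusted p 0.0136). Its neighbours in the pathway, Mvd and Fdps, were higher in the same libraries. Acaca was at 94.8 and 102 CPM in day 6 auxin, at 60.6 and 50.1 after day 4 washout (-0.81) and at 51.4 and 55.9 after day 6 washout (-0.86, SE 0.14, adjusted p 0.000103). Stard4 returned from 158 and 161 to 116 and 121 and to 120 and 121 CPM, against 118 and 114 in the day 6 controls. Elovl6 was at 139 and 149 CPM in day 6 auxin and at 112 and 111 and 88.1 and 95.9 after washout. It also declined with time in untreated cells, and the part of time here was not tested. Cells washed on day 4 were collected after as many days as the day 6 auxin cells.

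**Figure D5:**
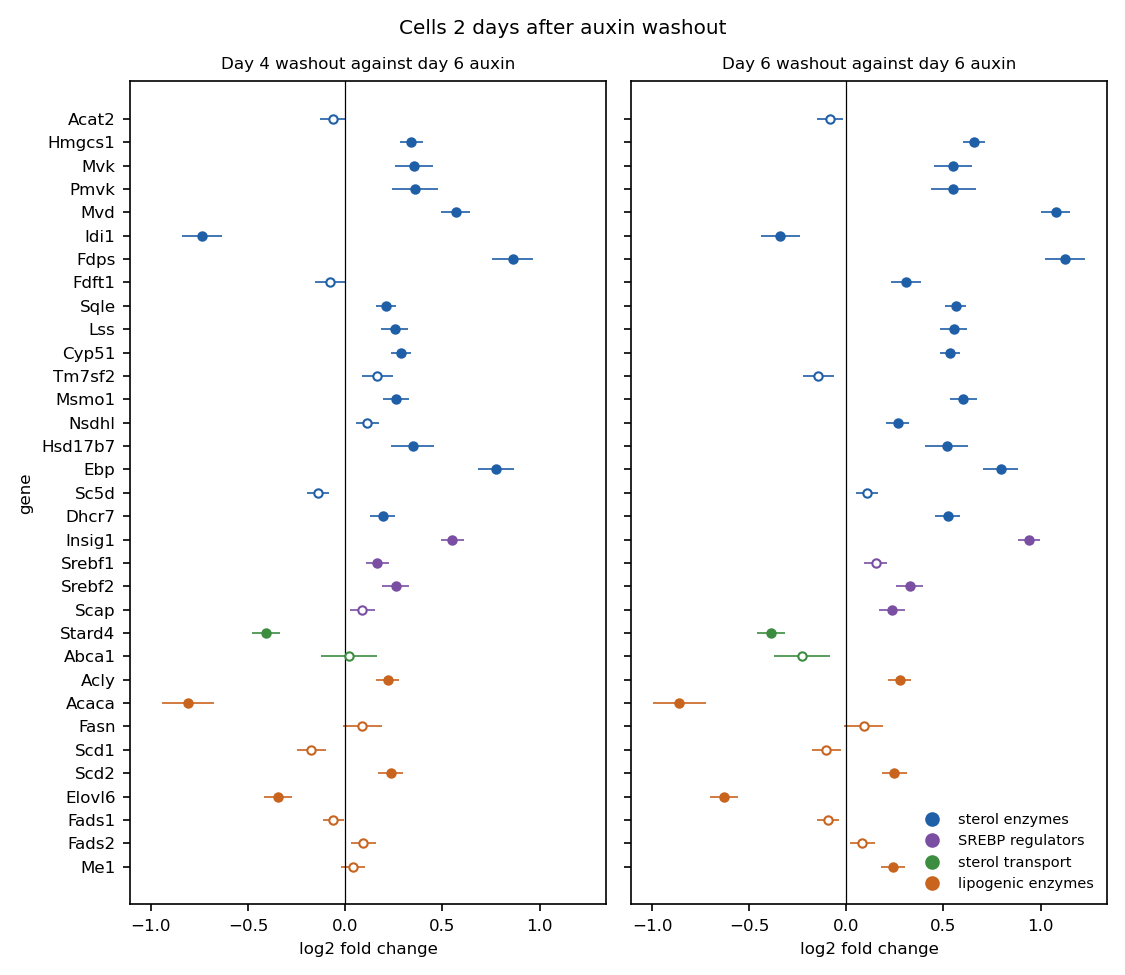
Log2 fold change against day 6 auxin (horizontal axes, with SE bars) of each of the 33 genes after day 4 washout (left) and day 6 washout (right), coloured by class; filled points passed at an adjusted p of 0.05. Fdps and Mvd lie at 0.86 and 0.57 on the left and 1.13 and 1.08 on the right, and Idi1, Stard4, Acaca and Elovl6 are the filled points below 0 on both sides.

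Against day 6 controls, 16 genes were lower after day 4 washout, 1 (Fdps, 0.43, adjusted p 0.00401) was higher and 16 did not pass, against 17.1% of all genes lower and 16.8% higher, with a median of -0.18. Of the lipogenic enzymes 7 of 9 were lower, of the sterol enzymes 9 of 18 and of the regulators 0 of 4. Idi1 was furthest below, at 8.31 and 8.62 against 22.4 and 20.8 CPM, a 2.54-fold difference (-1.34, SE 0.10, adjusted p 5.22e-08). Scd2 was at 882 and 796 against 1210 and 1177 CPM (-0.50) and Scd1 at 119 and 107 against 175 and 169.6 (-0.60). Insig1 (-0.01), Srebf2 (0.01) and Mvd (-0.09) did not pass. Fibroblast markers summed to 879 and 839 CPM after day 4 washout and to 1432 and 1389 after day 6 washout. They summed to 677 and 681 in day 6 auxin and to 782 and 751 in day 6 controls. Within that sum Pdgfra was at 331 and 316 CPM after day 4 washout against 432 and 447 in day 6 auxin. Col3a1 was at 330 and 318 against 150 and 149. Neuron markers summed to 40.5 to 48.6 CPM in the 4 washed libraries against 262 and 276 in day 6 controls. In day 6 auxin the neuron sums were 24.7 and 24.8. The part of these markers in the result was not tested. Without replicate 2 of day 6 auxin, 11 genes passed between day 4 washout and day 6 auxin, and with all 24 libraries in 1 fit 1 gene passed there, 1 against day 6 controls and 7 between day 6 washout and day 6 auxin.

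Other genes of these pathways were taken from lists, which were chosen with earlier results of these data known. The genes named from each list passed the threshold with the smallest p, so they were picked for how they moved. The lists are given as counts on days 2, 4 and 6, where 8.43, 11.8 and 15.2% of all genes were lower and 9.84, 11.8 and 14% higher with auxin. Of 9 genes of SREBP processing and degradation, 3 were lower and 0 higher with auxin on day 2, 1 lower and 3 higher on day 4, and 2 lower and 3 higher on day 6. Rnf145, a ubiquitin ligase linked to sterol sensing, was lower on each of these days (-0.49, -0.49 and -0.35), and Insig2 was higher on day 4 (0.32). Of 13 genes of the isoprenoid branches, 3, 1 and 1 were lower and 2, 2 and 0 higher. Of 17 genes of sterol transport and liver X receptor targets, 5, 4 and 3 were lower and 2, 5 and 5 higher, with the sterol exporter Abcg1 higher on day 4 (0.94, SE 0.15, adjusted p 0.00014). The medians of these first 3 lists lay between -0.15 and 0.07 on the 3 days. Of 24 other fatty acid synthesis and elongation genes, 7, 5 and 7 were lower and 2, 4 and 5 higher, with medians of -0.09, 0.00 and -0.04. On day 2 more genes were lower than higher in each of these 4 lists. Mid1ip1, which activates acetyl-CoA carboxylase, was lower on day 2 (-1.06, SE 0.11) and day 4 (-1.12, SE 0.12), and Aacs, which makes acetoacetyl-CoA in the cytosol, was lower on all 3 days (-0.41, -0.80 and -0.61). In ES cells at 96 h, Abca2 of the transport list was lower (-0.79, SE 0.15, adjusted p 0.036).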

How the data were processed

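The authors deposited raw read counts per gene, made with STAR and HTSeq on mm10 per the submitters' processing notes, which also name edgeR; for versions, annotation and strand setting nothing was given in the sources used here. 1 line with no gene name was left out. Counts were fitted in edgeR 4.0.16 (R 4.3.3, limma 3.58.1) with TMM scaling, a filter on low counts (minimum count 10, minimum total 15) and the quasi-likelihood test, adjusted by Benjamini-Hochberg over all genes tested at 0.05. The 8 ES libraries (20361 genes) were fitted with replicate number as a block. Same-numbered ES libraries deviated together in all 6 pairs of groups (correlation of deviations over 13186 genes 0.157 to 0.786), with the pairing read from the data and not from a label. The lowest value was that of 0 h with 96 h, the groups of the 96 h comparison. Pairs of an ES and a differentiation group reached 0.147, and pairs of differentiation groups 0.27. The 16 differentiation libraries (22587 genes) had no block, since only 4 of 28 pairs of groups passed 0.1, and comparisons across both sets used all 24 libraries (23831 genes). CPM was scaled over all 24 libraries.

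The 33 genes and all other lists were chosen with earlier results of these data known. All 33 could be named, and from each other list up to 3 genes past the threshold with the smallest p. The lists covered SREBP processing, isoprenoid branches, sterol transport, other fatty acid synthesis, glycerolipid synthesis, fatty acid oxidation and 7 sets of cell type markers. Alternatives were DESeq2 1.42.0 and its size factors, no filter, halved counts, a threshold of 0.01, the block left out or added, limma voom, all libraries in 1 fit and each library left out. The tests were run on simulated counts with changed genes: of 2-fold changes, 62.6% were recovered for day 4 auxin and 32.6% for 96 h in ES cells. Promoter sequences and start sites are from RefSeq on GRCm38.p6, exon lengths from GENCODE vM21 on the same build.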

Additional observations from a re-analysis of the deposited data

Results flagged for a closer look

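The auxin difference on day 6 was tested against that on day 2 in edgeR's quasi-likelihood test, and 8 of the 33 genes differed between the days. Of all genes, 8.13% were lower and 7.09% higher in the same test. How many of the 33 passed moved with single libraries and with the fit used, as given above. It was further below 0 on day 6 by -0.3571 for Hmgcs1, -0.3303 for Mvd, -0.3042 for Lss, -0.265 for Nsdhl, -0.285 for Dhcr7 and -0.5516 for Insig1, all on the log2 scale. It was higher by 0.4089 for Stard4 and by 0.5803 for Acaca. The log2 difference of Insig1 was -0.01 on day 2 and -0.56 on day 6, and that of Stard4 was 0.04 and 0.45. For Acaca it was -0.74 and -0.16, with day 2 auxin libraries at 84.7 and 130 CPM. Groups of 2 libraries were too small to ask whether 1 library stood apart from its group.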

How the results depend on the processing

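Numbers are of the 33 genes past the threshold. At an adjusted p below 0.01 there were 0 at 96 h in ES cells, 1 for day 2 against 0 h, 3 for day 6 against day 4, 13 for auxin on day 2 and 2 for the day 6 minus day 2 difference. With no filter on low counts there were 1, 13 and 20 at 24, 48 and 96 h in ES cells, 6 for day 2 against 0 h and 1 for the day 4 minus 96 h difference. The DESeq2 test gave 9 at 48 h, 19 at 96 h and 5 for day 2 against 0 h, where DESeq2 size factors and halved counts each gave 4. All 24 libraries in 1 fit gave 8 at 48 h, 10 for day 4 against day 2, 0 for day 6 against day 4, 1, 6 and 1 for auxin on days 2, 4 and 6, 1 for day 4 washout against day 6 auxin, 1 against day 6 control, 7 for day 6 washout, and 0 for the day 6 minus day 2 difference. Without the replicate block 0 passed at 96 h. With a replicate block in the differentiation libraries the day 6 minus day 2 difference had 5, and 171 of 177 calls there were kept. A replicate block within each set gave 20 for day 2 against 0 h and 1 for the day 4 minus 96 h difference. Leaving out 1 library gave 0 to 4 at 48 h, 5 to 16 at 96 h, 1 to 9 for day 2 against 0 h, 2 to 3 for day 6 against day 4, 12 to 24 for auxin on day 2, 11 to 17 for day 4 washout against day 6 auxin, 2 to 20 for the day 6 minus day 2 difference and 0 to 4 for the day 4 minus 96 h difference. The cause was not tested, beyond the fewer libraries or the larger dispersion that an alternative has by construction. No call changed sign under any alternative run. Over all genes, auxin on days 2, 4 and 6 called 4126, 5318 and 6588, and 313, 803 and 1564 with all 24 libraries in 1 fit; at 96 h in ES cells 621 were called and 0 without the block. ES libraries of replicate 1 had the lowest depth, and the ES fit had 3 residual degrees of freedom.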

Other observations

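Some genes of fatty acid oxidation and of glycerolipid synthesis were higher with auxin during differentiation, where 9.84, 11.8 and 14% of all genes were higher on days 2, 4 and 6. Of 18 oxidation genes, 3, 11 and 8 were higher on days 2, 4 and 6 and the rest did not pass in edgeR's quasi-likelihood test, with medians of 0.08, 0.23 and 0.16. Pdk4, a kinase that restrains the use of pyruvate, was higher by 1.88 (SE 0.14, adjusted p 6.1e-08) on day 4 and 2.01 on day 6, Cpt1a, the gate for fatty acids into mitochondria, by 0.95 and 1.07, and the carnitine carrier Slc25a20 by 0.46, 0.61 and 0.84 on the 3 days. In ES cells at 96 h Slc25a20 was the 1 oxidation gene that passed, at 0.84 (adjusted p 0.039). After washout 7 (day 4) and 9 (day 6) of the 18 were lower than in day 6 auxin, against 17.3 and 19.9% of all genes, led by Hadhb (-0.83 and -0.87), a subunit of the trifunctional protein of beta-oxidation, and Cpt1a fell by 0.45 and 0.67; 2 were higher in each.

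Of 13 glycerolipid genes, 7, 4 and 5 were higher with auxin on days 2, 4 and 6 and 1 was lower on each day, with medians of 0.26, 0.11 and 0.07. Dgat2, which completes triglyceride synthesis, was higher by 0.92, 1.51 and 2.04 on the log2 scale, and after washout it was lower than in day 6 auxin by 1.27 and 1.32. Stard5, a sterol carrier, was higher by 1.47 (SE 0.09, adjusted p 2e-09) on day 6 and lower by 1.28 and 1.29 after washout. These lists and genes were chosen with earlier results known, and markers of cell identity moved in the same libraries, whose part was not tested.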
